A study of Mus musculus with 3 samples.

Results

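The 39 Hox genes of the mouse were taken as all genes of the deposited tables whose symbol was Hoxa, Hoxb, Hoxc or Hoxd followed by a number, among 29267 genes in all. They comprised 11 Hoxa genes on chromosome 6, 10 Hoxb genes on chromosome 11, 9 Hoxc genes on chromosome 15 and 9 Hoxd genes on chromosome 2. The paper studied retinoic acid and a vitamin C salt during reprogramming of mouse embryonic fibroblasts (MEFs), the cells from which reprogramming starts. For its RNA-seq it names MEFs and embryonic stem cells (ESCs) as controls. The data used here hold 1 RNA-seq library for each of 3 cell sources. The first was MEFs of the OG2 strain at passages 3 to 5, whose Oct4-GFP transgene reports pluripotency. The second was MEFs of the outbred ICR strain, also at passages 3 to 5. The third carried the label of naive ESCs of the R1 line at passage 30. According to the paper's methods, MEFs with the Oct4-GFP allele were isolated from mid-gestation embryos, and how many embryos were pooled was not given in the sources used here. No treatment is named in the labels of these 3 libraries.

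Hox genes encode homeodomain transcription factors that give cells of the embryo an address along the body axis and along the limb. Each cluster is read in one direction, and the order of the genes on the chromosome follows the order of their domains in the body: genes with low paralogue numbers, at the 3′ end of a cluster, act at the level of the hindbrain and neck, genes with middle numbers act in the trunk, and genes with high numbers, at the 5′ end, act in the lumbar and tail region, the distal limb and the genital region. Fibroblasts keep much of this code in culture, whereas in ESCs the clusters are covered by Polycomb proteins and are largely silent. For the description below, paralogues 1 to 4 were called anterior (12 genes), 5 to 8 central (11 genes) and 9 to 13 posterior (16 genes).

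The tables held 5149297 counts in OG2 MEFs, 4590599 in ICR MEFs, but only 1717798 in the ESC-labelled library, after rounding. In the same order, 3 counts, taken as the lowest count that can be told from 0, corresponded to 0.583, 0.654 and 1.75 CPM, which scales counts to a common library total. CPM was then scaled with TMM factors, which correct for a few highly expressed genes, of 1.09, 1.13 and 0.812. All 13 fibroblast markers checked were detected in both MEF libraries, and their summed CPM was 33908 and 35453 there and 4229 in the ESC-labelled library. Of 14 pluripotency markers, 7 were at 0 in that library (Zfp42, Esrrb, Dppa5a, Dppa4, Utf1, Dppa3 and Lin28a), while Pou5f1 had 50.9 CPM and Nanog 36.6 CPM. Since these markers were mixed, the ESC name is used only as a label. The libraries came from separate cell sources with 1 library each, so p-values measure the spread between the pair of MEF samples only. In bulk RNA, fewer cells with a transcript and less of it per cell cannot be told apart.

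Hox transcripts were a small share of the RNA in every library. They took 2172 counts (0.0422% of the counts, exact 95% interval 0.0404% to 0.0440%) in OG2 MEFs, 1879 (0.0409%, 0.0391% to 0.0428%) in ICR MEFs, but 443 (0.0258%, 0.0234% to 0.0283%) in the ESC-labelled library. These intervals cover counting error only, since the reads carried no molecular identifiers. At least 1 count was found for 35 of the 39 genes in each MEF library and for 25 in the ESC-labelled library. At 0 in all 3 libraries were Hoxb1, which patterns the hindbrain, Hoxb13, Hoxc12 and Hoxd1. A further 3 genes, Hoxc11, Hoxc13 and Hoxd3, had reads but fewer than 10 counts in each MEF library. A count of 0 puts a gene under the floor of 3 counts and does not show that it was silent.

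The MEFs read most of the Hox code, from anterior to posterior genes. On the TPM scale, which divides counts by transcript length so that genes can be compared, Hoxc6 was the highest Hox gene in both libraries, at 50.3 TPM in OG2 and 54.1 TPM in ICR MEFs. Hoxb9, a gene of the lower thorax, followed at 42.5 and 34.6 TPM. Hoxa10, which acts in the lumbar spine and the uterus, stood at 30.6 and 33.4 TPM. Hoxc6 stood at percentile 78.7 in OG2 and 79.1 in ICR MEFs among all genes with reads. The typical Hox gene was lower: the median Hox gene with reads had 8.6 TPM in OG2 and 9.06 TPM in ICR MEFs, and the median of all genes with reads was 12.6 and 13.9 TPM.

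**Figure D1:**
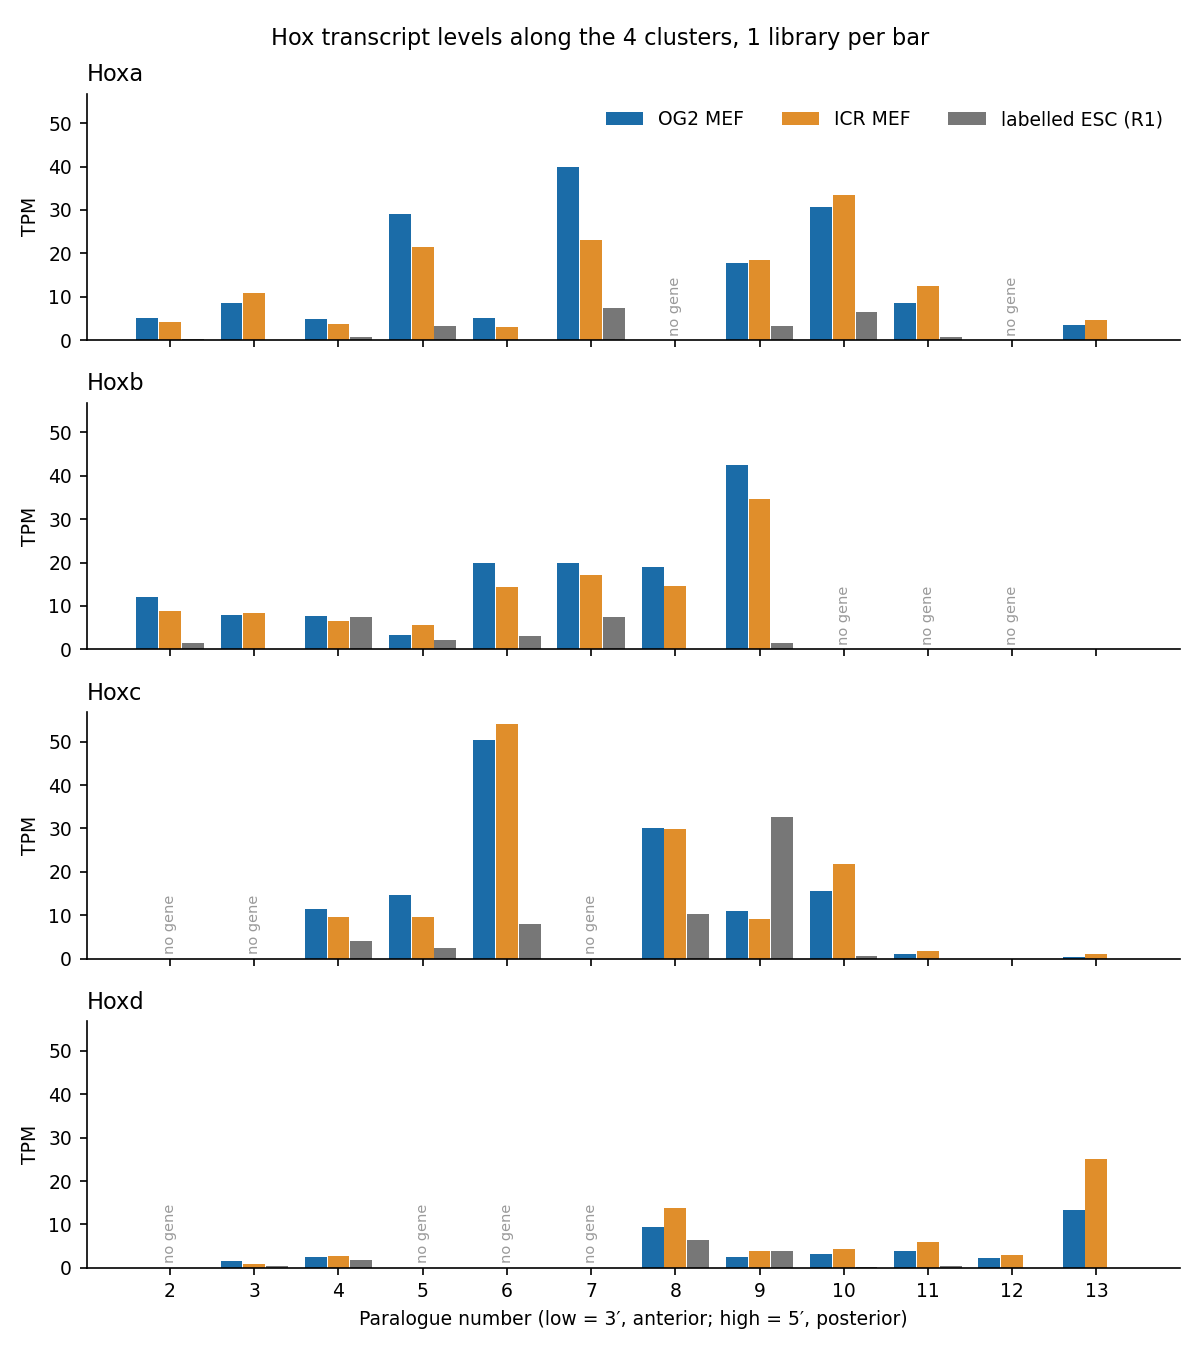
Level of the Hox genes in TPM (vertical axis) by paralogue number from the 3′ to the 5′ end (horizontal axis), from 2 to 13, with 1 panel per cluster and 1 bar per library, and no error bars because each bar is 1 library. Levels in both MEF libraries are highest between paralogues 5 and 10, Hoxd13 stands apart at the 5′ end of Hoxd, and Hoxc9 is the only gene above 30 TPM in the ESC-labelled library.

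Below Hoxa10 came Hoxa7 (39.9 and 23.0 TPM in OG2 and ICR MEFs), Hoxc8 (30.1 and 29.9 TPM) and Hoxa5 (29.1 and 21.4 TPM), all 3 of the trunk range. Hoxd13, which shapes the digits and the genital tubercle, was the next in the order of MEF means, at 13.3 and 25.2 TPM, far above its neighbours Hoxd12 (2.26 and 2.99 TPM) and Hoxd11 (3.77 and 6.04 TPM). It was followed by Hoxc10 (15.6 and 21.7 TPM), Hoxb7 (19.8 and 17.0 TPM), Hoxa9 (17.8 and 18.5 TPM), Hoxb6 (19.9 and 14.5 TPM) and Hoxb8 (18.9 and 14.6 TPM). The order within this middle group was not resolved. Over the whole list, the step from a gene to the next was larger than the combined SD of the pair of MEF libraries for only 6 of 38 steps. Those included the steps from Hoxc6 to Hoxb9 and from Hoxb9 to Hoxa10, but none between Hoxa10 and Hoxb3. Hoxb9 was narrowly second in both libraries, at 42.5 TPM before Hoxa7 (39.9 TPM) in OG2 MEFs. In ICR MEFs it had 34.6 TPM before Hoxa10 (33.4 TPM). The order below Hoxc6 was therefore not firm.

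No anterior gene exceeded 12.0 TPM in either MEF library, and Hoxd genes other than Hoxd13 and Hoxd8 had at most 6.04 TPM. Hoxc5 (14.8 and 9.47 TPM in OG2 and ICR MEFs), Hoxd8 (9.32 and 13.9 TPM), Hoxa11 (8.6 and 12.5 TPM), which acts in the forearm, Hoxc4 (11.5 and 9.63 TPM) and Hoxb2 (12.0 and 8.80 TPM) stood between 8.6 and 14.8 TPM. Hoxc9 (11.0 and 9.06 TPM), Hoxa3 (8.48 and 10.8 TPM), a gene of the pharyngeal arches and neck, Hoxb3 (8.01 and 8.27 TPM) and Hoxb4 (7.74 and 6.43 TPM) came next. The other genes with at least 10 counts in a MEF library were between 2.26 and 6.04 TPM in each, among them Hoxa2, Hoxa4, Hoxa6, Hoxa13, Hoxb5, Hoxd4, Hoxd9, Hoxd10, Hoxd11 and Hoxd12. Hoxa2 belongs to the hindbrain end of Hoxa and Hoxa13 to its limb and genital end, so both ends of that cluster were read at low level.

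Summed over the clusters, Hoxa took 32.5% of the Hox TPM in MEFs, with an SD of 1.74 percentage points over the pair of libraries. Hoxc took 29.9% (SD 0.994), Hoxb 26.6% (SD 2.86) and Hoxd 10.9% (SD 3.61). The first 3 clusters lay close together and Hoxd was the lowest in both libraries, at 8.33% in OG2 and 13.4% in ICR MEFs. By range, the central genes took 49.2% (SD 4.20), the posterior genes 37.1% (SD 4.51) and the anterior genes 13.7% (SD 0.312). The 5 highest genes of each library took 42.0% of the Hox TPM in OG2 and 39.7% in ICR MEFs. A share of TPM depends on how reads were divided between overlapping genes: 11 members overlap another Hox gene on the same strand, among them Hoxc6 and Hoxc8, and without them the orders turned. Hoxb was then the largest cluster at 42.6% and Hoxc the smallest at 4.49%, and the posterior share of 49.2% stood above the central share of 35.2%. On the CPM scale, central and posterior genes took nearly equal shares, 42.2% and 41.8%. The library preparation named in the labels does not mark the strand, and 14 members overlap a gene on the other strand, so their reads could not be told apart from those of the partner.

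Both MEF libraries carried closely similar codes. Across the 35 Hox genes with reads in both, the Pearson correlation of log2(TPM + 1) was 0.949, against 0.981 across all 14579 genes with reads in both. These are correlations across genes of 1 pair of libraries, genes are not independent replicates, and the narrower range of the Hox levels enters the value. On the log2(CPM + 1) scale, 0 of the 39 Hox genes differed by at least 1 log2 unit between OG2 and ICR MEFs, where 2.76% of all genes with a count did. This comparison has 1 library per strain and no replicate check, so strain, embryos and culture cannot be told apart, and no p-value was computed. In its place, an exact 95% counting interval of the ratio of CPM was taken from the split of the counts.

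Within this similarity, Hox genes with central numbers leaned to OG2 MEFs and genes with posterior numbers leaned to ICR MEFs. Of the 34 members with at least 10 counts in the pair, 18 were higher in OG2 and 16 in ICR MEFs (16 and 18 with TPM or with a GC-content correction). Over all genes compared, 50.2% were higher in OG2 MEFs. Among the 11 central genes, 9 were higher in OG2 MEFs, Hoxc6 among them by a log2 difference of only 0.00044 that turned to ICR with TPM and with the GC-content correction, and among the 13 posterior genes compared, 11 were higher in ICR MEFs. The summed CPM of the central genes was 174 in OG2 and 143 in ICR MEFs, a ratio of 1.22 (1.11 to 1.34). That of the posterior genes was 149 and 163, a ratio of 0.909 (0.825 to 1.001), whose interval reached 1. The posterior sum rested on Hoxb9, which has the most counts and leaned to OG2, and without it the ratio was 0.799 (0.713 to 0.896). The anterior genes, at 63.0 and 57.5 CPM, had a ratio of 1.10 (0.937 to 1.28).

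**Figure D2:**
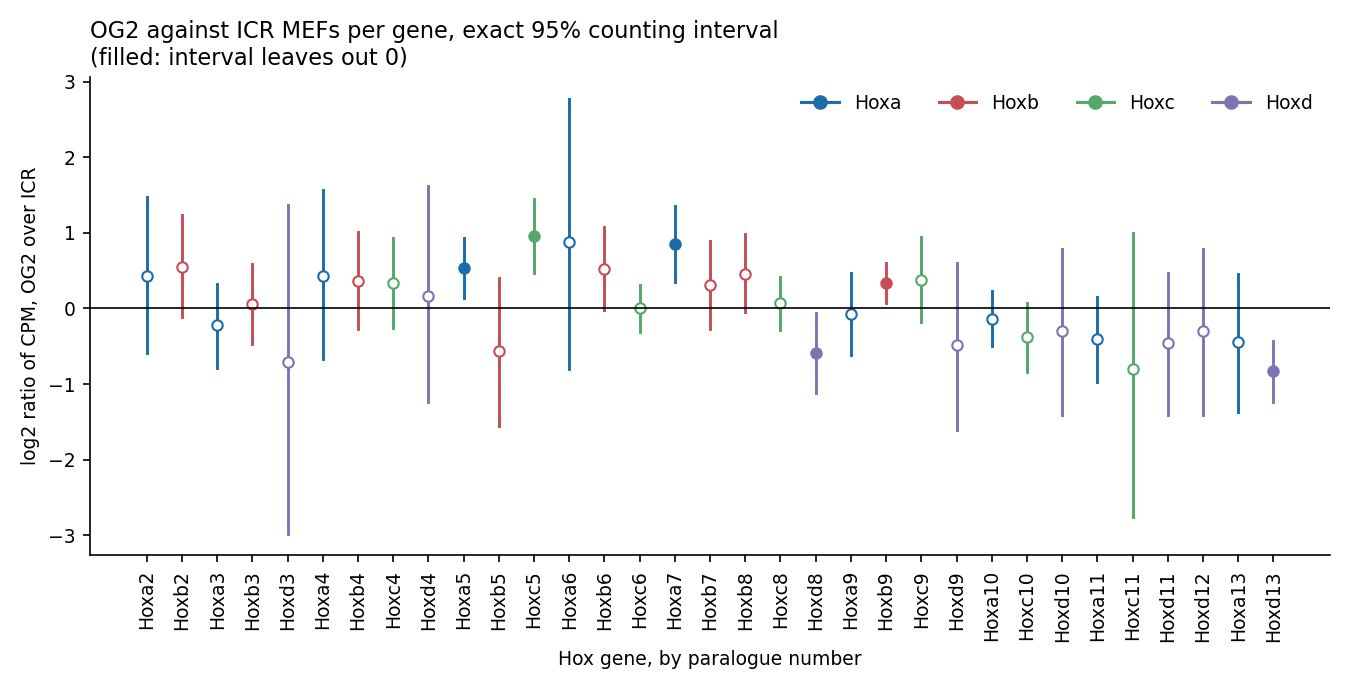
Log2 ratio of CPM, OG2 over ICR MEFs (vertical axis), for the Hox genes with at least 10 counts in the pair (1 gene is not shown), ordered by paralogue number (horizontal axis) and coloured by cluster, with exact 95% counting intervals as bars and filled points where the interval leaves out 0. The filled points above 0 are Hoxa5, Hoxc5, Hoxa7 and Hoxb9, those below 0 are Hoxd8 and Hoxd13, and every gene from Hoxa10 onward lies below 0.

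The counting interval left out a ratio of 1 with OG2 higher for 4 of the 34 genes, where 12.2% of all 12745 genes compared did so. Hoxc5 had 114 expected counts in OG2 and 54.1 in ICR MEFs, a ratio of CPM of 1.94 (1.39 to 2.73). Hoxa7 had 102 and 52 counts, a ratio of 1.80 (1.28 to 2.56). Hoxa5, which patterns the lung and the thoracic border, had 139 and 88 counts (1.45, 1.10 to 1.915), and Hoxb9 had 275 and 200 (1.26, 1.05 to 1.52). The share of members past this limit was close to the share of all genes, and these were single libraries. Hoxc5 overlaps Hoxc6, Hoxc8, Hoxc9 and Hoxc10 on the same strand, and RSEM divides reads that fit several of them.

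The interval left out 1 with ICR higher for 2 of the 34 genes, where 12.6% of all genes compared did so. Both lie in Hoxd. Hoxd13 had 86 counts in OG2 and 140 in ICR MEFs, so its CPM was 1.77-fold higher in ICR MEFs (1.35 to 2.35). Hoxd8 had 53 and 73 counts and was 1.501-fold higher in ICR MEFs (1.04 to 2.18). The other Hoxd genes leaned the same way at lower counts, with Hoxd3 at 4 and 6 in OG2 and ICR MEFs, Hoxd9 at 14 and 18, Hoxd10 at 15 and 17, Hoxd11 at 19.4 and 23.7 and Hoxd12 at 15 and 17. Hoxd4, at 11 and 9 counts, was the exception. Of the 8 Hoxd genes compared, 7 were higher in ICR MEFs by CPM. Summed over the cluster, Hoxd had 217 counts in OG2 and 304 in ICR MEFs, and its CPM was 1.53-fold higher in ICR MEFs (1.28 to 1.83). Without Hoxd13 the ratio of OG2 over ICR moved from 0.655 to 0.733 (0.578 to 0.928), so the lean of the cluster did not rest on that gene alone.

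The other clusters did not share this direction. Hoxb was 1.25-fold higher in OG2 MEFs (1.11 to 1.41), with 7 of its 8 genes compared leaning that way, Hoxb5 (17 and 23 counts) being the exception. Hoxa had a ratio of 1.07 (0.956 to 1.21), with 5 genes higher in OG2 and 6 in ICR MEFs, and Hoxc had a ratio of 1.10 (0.980 to 1.23). The ranges went apart within Hoxa and less so within Hoxc, but not within Hoxb or Hoxd. In Hoxa the central genes Hoxa5, Hoxa6 and Hoxa7 summed to 251 and 145 counts (ratio 1.59, 1.29 to 1.96), whereas the posterior genes Hoxa9, Hoxa10, Hoxa11 and Hoxa13 summed to 261 and 276 (0.868, 0.730 to 1.03). In Hoxb the ratio was 1.26 for central genes (1.03 to 1.54) and 1.26 for Hoxb9, the posterior gene with reads. In Hoxd it was 0.666 for Hoxd8, the central gene, and 0.633 (0.510 to 0.783) for the posterior genes. In Hoxc it was 1.16 (1.01 to 1.34) for central and 0.911 (0.723 to 1.15) for posterior genes, with intervals that overlapped. Hoxc6 was equal in both strains, at 32.1 CPM each.

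**Figure D3:**
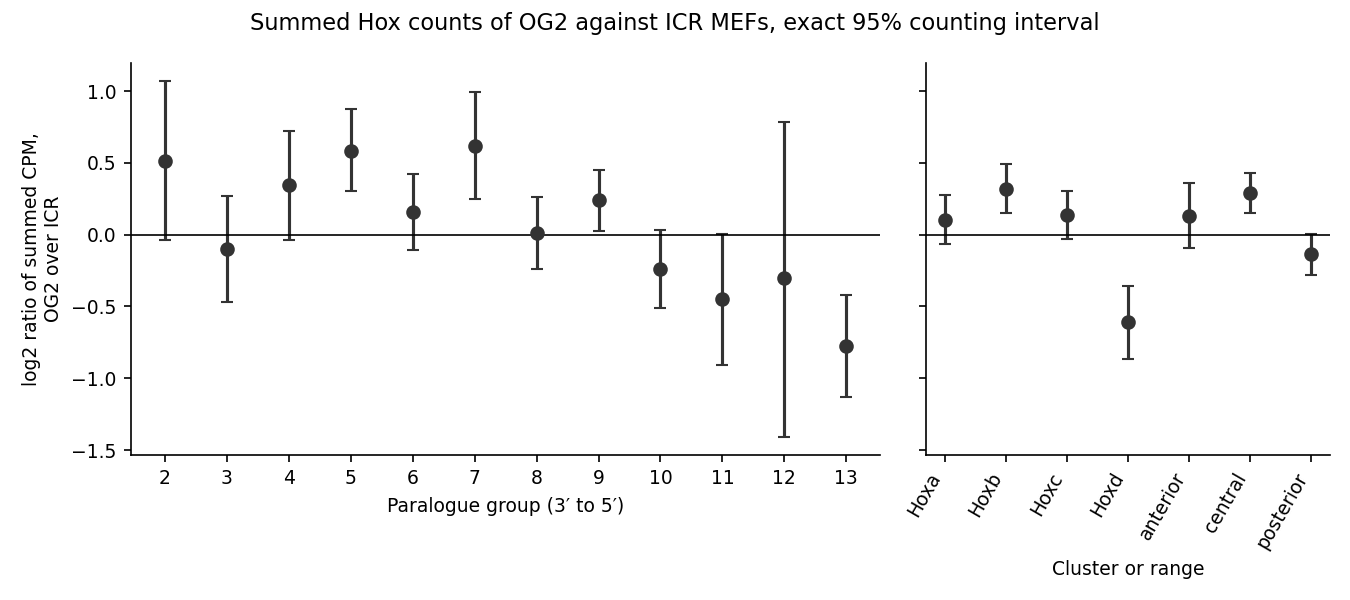
Log2 ratio of summed CPM, OG2 over ICR MEFs (vertical axis), by paralogue group from 2 to 13 (left) and by cluster and range (right), with exact 95% counting intervals as bars. The intervals of groups 5, 7 and 9, of Hoxb and of the central range lie above 0, those of group 13 and of Hoxd lie below 0, and every other interval reaches 0.

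By paralogue group, summed over the clusters, group 7 (Hoxa7 and Hoxb7) had the highest ratio of OG2 over ICR, 1.54 (1.19 to 1.99), and group 5 had 1.501 (1.23 to 1.83). Group 9 had 1.18 (1.02 to 1.37). From group 10 onward each ratio was under 1: 0.848 (0.703 to 1.02) for group 10, 0.732 (0.533 to 1.002) for group 11 and 0.809 (0.376 to 1.72) for group 12, all with intervals that reached 1. Group 13, which acts at the ends of the limbs and of the trunk, had 0.585 (0.456 to 0.748). In it Hoxa13, with 20 and 25 counts, leaned to ICR MEFs like Hoxd13, and its own interval of the ratio (0.387 to 1.38) held 1. Over the 34 genes the Spearman correlation of paralogue number with the log2 ratio was -0.37, a description of 1 pair of libraries. Markers of other cell types also differed between the MEF libraries. The summed CPM of 4 skeletal muscle markers was 89.99 in OG2 and 50.1 in ICR MEFs, nearly all of it from Des, with the defining factor Myod1 at 0 in both. That of 3 cartilage markers was 168 and 150. Of these, Acan (7 and 80 counts) and Sox9 (89 and 109) leaned to ICR MEFs, and Col2a1 (848 and 587) to OG2 MEFs. The 4 epithelial markers summed to 7.45 and 12.0 CPM, with Epcam and Cdh1 at 0 in both. The 8 neural markers summed to 52.0 and 34.6 CPM, nearly all of it from Tubb3 (49.2 and 32.5 CPM), with Sox1 and Neurog2 at 0 in both. The part of these cells in the Hox differences was not tested.

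The promoters at both ends of the Hoxd cluster are given here, since Hoxd13 was the highest Hoxd gene in MEFs and Hoxd1 had no read in any library. The windows span 250 bases before to 50 bases after the RefSeq start on GRCm38.p6, on the plus strand, with CG dinucleotides, the sites of DNA methylation, in capitals. That of Hoxd13 is chr2:74667975-74668274 and that of Hoxd1 is chr2:74762730-74763029.
Hoxd13: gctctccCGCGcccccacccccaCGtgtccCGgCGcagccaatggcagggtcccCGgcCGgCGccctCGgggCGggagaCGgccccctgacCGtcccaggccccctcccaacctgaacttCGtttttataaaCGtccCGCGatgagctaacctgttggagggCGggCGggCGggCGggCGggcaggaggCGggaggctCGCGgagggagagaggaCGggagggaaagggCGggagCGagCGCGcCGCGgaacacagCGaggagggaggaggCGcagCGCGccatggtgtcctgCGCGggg
Hoxd1: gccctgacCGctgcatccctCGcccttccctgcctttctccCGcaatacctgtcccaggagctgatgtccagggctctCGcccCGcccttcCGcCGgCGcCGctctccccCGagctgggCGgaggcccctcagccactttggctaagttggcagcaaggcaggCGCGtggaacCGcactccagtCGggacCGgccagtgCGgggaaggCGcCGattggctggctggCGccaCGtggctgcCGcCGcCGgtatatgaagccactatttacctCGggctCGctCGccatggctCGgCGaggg

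The Hoxd13 window held 37 CG dinucleotides and the Hoxd1 window 29, against a median of 14.5 over the 24 windows of 22 Hox genes in the RefSeq table and of 7 over all 32841 windows. A CG-rich start was thus common to the read and the unread end of the cluster. The letters TATAAA, searched on both strands, were present in 4 of the 24 Hox windows (16.7%), that of Hoxd13 among them, and in 13.6% of all windows. The letters AGGTCA, the half-site of nuclear receptors such as the retinoic acid receptors, were present on either strand in 7 of the 24 Hox windows (29.2%) and in 16.3% of all windows. Those were the windows of Hoxa5, Hoxb4, Hoxc4, Hoxd3, Hoxd4, Hoxd8 and Hoxd10. These matches describe letters in 1 window per start and say nothing of binding.

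The clusters also contain microRNA genes, the miR-10 and miR-196 families, which pair with the 3′ untranslated region (UTR) of Hox transcripts and lower them. Their own levels were not analysed here. The mature sequences of the RefSeq table are given 5′ to 3′ with the seed, bases 2 to 8, in capitals. Within each family the seed was shared.
miR-10a-5p: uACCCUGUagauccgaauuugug
miR-10b-5p: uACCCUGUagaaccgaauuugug
miR-196a-5p: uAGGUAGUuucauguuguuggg
miR-196b-5p: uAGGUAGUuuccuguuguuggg

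A match to the miR-196 seed was found in the longest annotated 3′ UTR of 9 of the 39 Hox genes (23.1%) and of 6.15% of all 20846 protein-coding genes with such a UTR in GENCODE M21. The 9 genes included Hoxa4, Hoxa5, Hoxa7, Hoxa9, Hoxb1, Hoxb6, Hoxb7 and Hoxc8, of which 5 are central. Their median MEF level was 18.2 TPM, and that of the Hox genes without a match was 5.995 TPM, so the genes with matches included several of the highest. Hoxa7 alone held 4 matches. Matches to the miR-10 seed were found in 4 genes, all anterior, among them Hoxa3, Hoxb3 and Hoxd1, 10.3% of the Hox genes against 12.6% of all genes. The sites below, on GRCm38, show a Hoxa7 match complementary to miR-196a-5p at 14 of 22 positions and the Hoxd1 match complementary to miR-10a-5p at 13 of 23 positions, with the seed match in capitals. The first is chr6:52215210-52215231 on the minus strand and the second chr2:74764930-74764952 on the plus strand, both in the 3′ UTR.
Hoxa7: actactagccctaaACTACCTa
Hoxd1: tagcggaacaaatccACAGGGTa

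Compared with MEFs, the ESC-labelled library had lower CPM for some Hox genes and higher CPM for a few. With edgeR's quasi-likelihood test, adjusted by Benjamini-Hochberg over all 12663 genes tested, 31 Hox genes had enough counts to be tested. Of these 13 were lower (41.9%), where 36.0% of all genes tested were lower. Another 4 were higher, where 31.4% of all genes tested were higher, and 14 did not pass the adjusted threshold of 0.05. The median difference on the log2(CPM + 1) scale was -1.11 over the 31 Hox genes and -0.41 over all genes tested, or -0.96 with the Hox genes at 0 set to the limit of 3 counts. The share of Hox genes that were lower was thus near that of all genes. The spread rested on 1 residual degree of freedom, and DESeq2 left 6 Hox genes lower and 1 higher. The share of all genes called by DESeq2 is not given here, so these counts cannot be set against it.

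**Figure D4:**
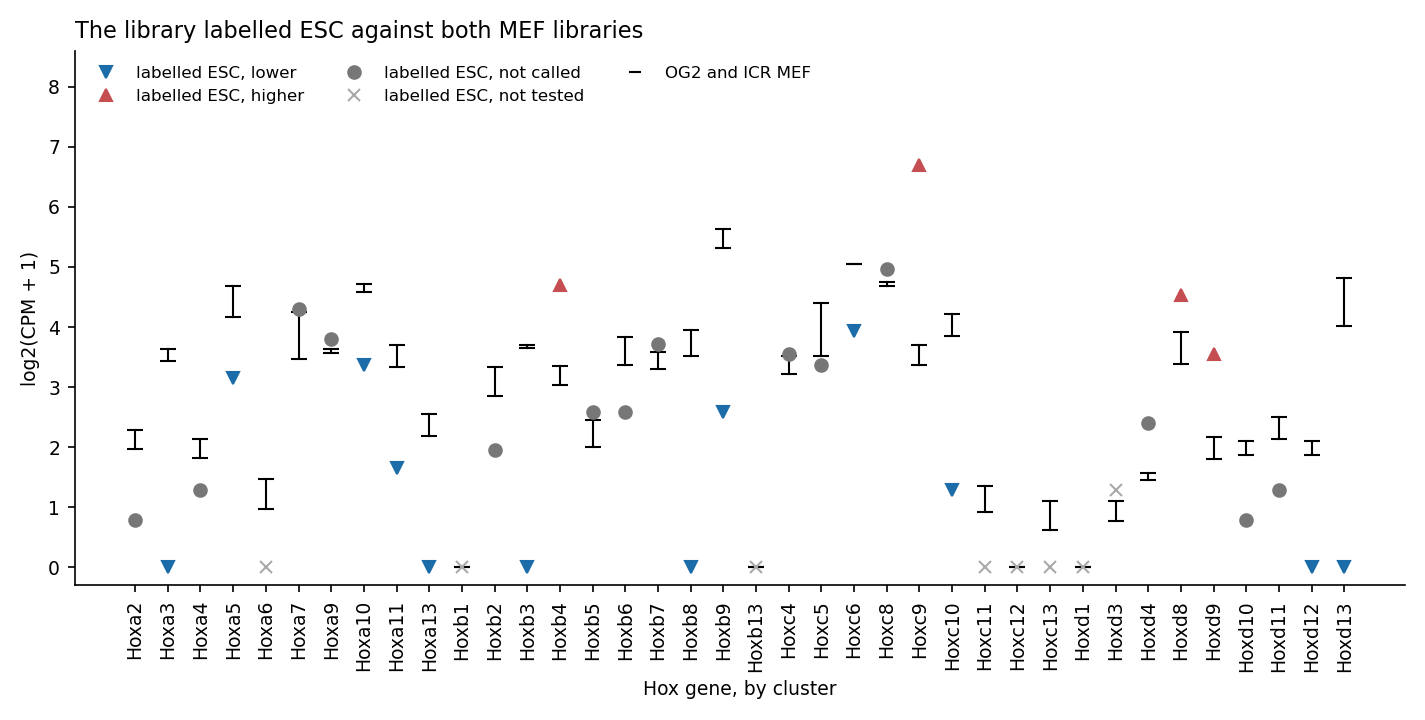
Log2(CPM + 1) of the Hox genes, 1 of them not shown (vertical axis), by cluster and paralogue number (horizontal axis), with black ticks for the OG2 and ICR MEF libraries joined by a line and symbols for the ESC-labelled library by their edgeR call (adjusted p under 0.05, higher or lower). Hoxc9, Hoxb4, Hoxd8 and Hoxd9 lie above both MEF libraries and are called higher, and Hoxa3, Hoxa13, Hoxb3, Hoxb8, Hoxd12 and Hoxd13 are called lower at 0 counts.

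The lower genes came from all ranges. Anterior genes included Hoxa3 and Hoxb3, central genes were Hoxa5, Hoxb8 and Hoxc6, and posterior genes were Hoxa10, Hoxa11, Hoxa13, Hoxb9, Hoxc10, Hoxd12 and Hoxd13. Hoxb9 had 48.8 and 38.7 CPM in OG2 and ICR MEFs, against 5.02 CPM in the ESC-labelled library, a log2 change of -2.95 ± 0.39 (SE, edgeR adjusted p = 0.00014). Hoxc10 had 13.5, 17.6 and 1.43 CPM, a change of -3.24 ± 0.66 (adjusted p = 0.0019). Hoxa11 had 9.05, 12.0 and 2.15 CPM (-2.10 ± 0.66, adjusted p = 0.018), and unlike Hoxb9 and Hoxc10 it did not pass with DESeq2 (adjusted p = 0.195). In each of these 3 genes the ESC-labelled library lay below both MEF libraries, which were close to each other. Hoxb9 had 7 counts there. Hoxc10 had 2 counts, under the floor of 3 counts, and Hoxa11 had 3 counts, at that floor. The size of the falls of Hoxc10 and Hoxa11 is therefore uncertain.

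Smaller falls that passed the test were those of Hoxa5 (24.7, 17.0 and 7.89 CPM in OG2 MEFs, ICR MEFs and the ESC-labelled library, adjusted p = 0.033), Hoxa10 (22.9, 25.2 and 9.32 CPM, adjusted p = 0.014) and Hoxc6 (32.1, 32.1 and 14.3 CPM, adjusted p = 0.012). The ratio of the ESC-labelled library to the MEF mean was 0.378 for Hoxa5, 0.388 for Hoxa10 and 0.446 for Hoxc6, so these genes kept a clear level there. None of the 3 passed under DESeq2 (adjusted p of 0.249, 0.221 and 0.235).

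Of the 10 members that had reads in MEFs and 0 counts in the ESC-labelled library after rounding, 7 had enough MEF counts to be tested. A gene at 0 there can only come out lower, so the direction of these 7 was fixed in advance. All 7 passed the threshold. With 3 counts as the floor of that library, Hoxd13 was at least 9.84-fold lower (15.3 and 27.1 CPM in OG2 and ICR MEFs, edgeR adjusted p = 7.0e-04), Hoxb8 at least 5.77-fold (14.4 and 10.4 CPM, adjusted p = 9.3e-04), Hoxb3 at least 5.50-fold (12.1 and 11.6 CPM, adjusted p = 7.0e-04) and Hoxa3 at least 4.92-fold (9.76 and 11.4 CPM, adjusted p = 0.0011). These 4 were also lower with DESeq2. The bounds were small for Hoxa13 (1.95-fold) and Hoxd12 (1.38-fold), whose MEF levels were under 5 CPM. The other 3 genes at 0, Hoxa6, Hoxc11 and Hoxc13, had MEF levels under the floor of 2.15 scaled CPM and were not tested, so their loss was not detectable at this depth. For group 13 as a whole the ESC-labelled library had no count, against 109 in OG2 and 171 in ICR MEFs.

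The 4 higher genes were led by Hoxc9, a gene of the thoracic level. It had 68 and 48 counts in OG2 and ICR MEFs, against 143 in the ESC-labelled library, the shallowest of the 3, so its CPM was 12.1, 9.29 and 102.5, a log2 change of 3.43 ± 0.22 (edgeR adjusted p = 1.7e-06). Its direct neighbours did not share this: Hoxc8 had 25.9, 24.8 and 30.1 CPM (adjusted p = 0.16) and Hoxc10 was lower. On the TPM scale it had 11.0, 9.06 and 32.6 TPM, the last being the highest level of a Hox gene in the ESC-labelled library. Hoxc9 overlaps Hoxc5 on the same strand, and RSEM divides reads that fit both. It was the only one of the 4 that was also higher with DESeq2 (adjusted p = 9.0e-11).

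Hoxb4, which acts at the level of the neck and in blood stem cells, had 9.23 and 7.16 CPM in OG2 and ICR MEFs, against 25.1 CPM in the ESC-labelled library (log2 change 1.78 ± 0.36, edgeR adjusted p = 0.0020). Hoxd9, another paralogue of the lower thorax and lumbar level, had 2.48, 3.48 and 10.8 CPM (2.01 ± 0.59, adjusted p = 0.014). Hoxd8 had 9.41, 14.1 and 22.2 CPM (1.09 ± 0.38, adjusted p = 0.030). These 3 rises depended on the scale: with log2(TPM + 1) the differences were 0.05 for Hoxb4, 0.22 for Hoxd9 and -0.76 for Hoxd8, which turned its direction, while Hoxc9 stayed at 1.61. With the GC-content correction on the log2(CPM + 1) scale, Hoxd9 moved from 1.57 to 0.52, Hoxd8 from 0.89 to 0.45, Hoxb4 from 1.51 to 1.07 and Hoxc9 from 3.16 to 2.86. The change to TPM moved the median difference of all genes tested by -1.13, from -0.41 to -1.55, so relative to all genes the 4 stood above it on both scales.

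The 14 genes that did not pass the test included many with counts near the limit. Hoxa7 (18.1, 10.1 and 18.6 CPM in OG2 MEFs, ICR MEFs and the ESC-labelled library), Hoxa9 (10.8, 11.4 and 12.9 CPM), Hoxb7 (11.0, 8.90 and 12.2 CPM) and Hoxc4 (10.5, 8.32 and 10.8 CPM) had similar CPM in all 3 libraries. Their log2 changes with SE were 0.57 ± 0.44, 0.39 ± 0.39, 0.46 ± 0.42 and 0.36 ± 0.44. An SE of this size would also allow a moderate difference in either direction. Hoxc5 (20.2, 10.4 and 9.32 CPM), Hoxb6 (13.3, 9.29 and 5.02 CPM), Hoxb2 (9.05, 6.19 and 2.87 CPM), Hoxb5 (3.02, 4.45 and 5.02 CPM), Hoxd4 (1.95, 1.74 and 4.30 CPM), Hoxa2 (3.90, 2.90 and 0.717 CPM), Hoxa4 (3.37, 2.52 and 1.43 CPM), Hoxd10 (2.66, 3.29 and 0.717 CPM) and Hoxd11 (3.37, 4.64 and 1.43 CPM) were the others beside Hoxc8.

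Genes with similar CPM in the 3 libraries, such as Hoxb7, had lower TPM in the ESC-labelled library, and TPM also lowered the median difference of all genes tested. Hoxb7, with a length of 1291 bases in each library, had 19.8 and 17.0 TPM in MEFs and 7.52 TPM there. For Hoxa7 and Hoxa9 the assigned length also differed. RSEM gives for each gene a length averaged over its transcripts by their estimated abundance. For Hoxa9 it was 1393 bases in OG2, 1496 in ICR MEFs and 3016 in the ESC-labelled library, and its level was 17.8, 18.5 and 3.18 TPM. For Hoxa7 the lengths were 1087, 1106 and 1952 bases and the levels 39.9, 23.0 and 7.30 TPM. With 18 counts of Hoxa9 and 26 of Hoxa7 in that library, these lengths rest on few reads. Hoxa7 lies across from Hoxaas3 on the other strand, so reads of the pair could not be told apart.

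The remaining Hox reads of the ESC-labelled library had another make-up than those of MEFs. Its cluster shares of Hox TPM were 50.1% for Hoxc, 19.8% for Hoxb, 18.9% for Hoxa and 11.2% for Hoxd. Across the 35 genes with reads in both MEF libraries, its log2(TPM + 1) correlated with OG2 MEFs at 0.555 and with ICR MEFs at 0.497, and across all 14579 genes at 0.721 and 0.716. Summed Hox CPM was 386 in OG2 and 364 in ICR MEFs and 318 in the ESC-labelled library, of which Hoxc9 alone made 102.5. All 13 fibroblast markers were detected in that library and were lower than in MEFs. Its summed CPM was 153 for 4 epithelial markers, 126.9 of it from Krt8, 81.0 for 4 endothelial markers, 64.5 of it from Pecam1, and 32.3 for 4 blood markers, all of it from Hba-a1. In MEFs these lists reached 12.0, 11.5 and 1.95 CPM at most. The endothelial list was split, since Tek also rose, to 16.5 CPM in the ESC-labelled library, whereas Kdr and Cdh5 were at 0 there. Kdr had 10.8 CPM in OG2 and 10.4 CPM in ICR MEFs. The part of fibroblast or other RNA in its Hox reads was not tested.

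Hox proteins bind DNA with cofactors of the Pbx and Meis families, and these were read in all 3 libraries. Of the 9 partner genes tested, 3 were lower in the ESC-labelled library and 2 higher with edgeR, where 36.0% of all genes tested were lower and 31.4% higher, so neither count stood above that of all genes. Meis2 had 45.1 and 37.5 CPM in OG2 and ICR MEFs, against 8.61 CPM in that library (edgeR adjusted p = 4.2e-04). Meis1 had 23.6, 21.7 and 7.89 CPM (adjusted p = 0.010) and Pknox2 6.03, 9.87 and 0.717 CPM (adjusted p = 0.017). The higher genes were Pbx4 (1.24, 0.774 and 10.04 CPM) and Pbx2 (37.3, 30.6 and 50.9 CPM), of which Pbx2 turned its direction with TPM. Among those that did not pass were Pbx3 (25.9, 27.1 and 14.3 CPM), Meis3 (15.6, 18.2 and 23.0 CPM) and Pknox1 (30.7, 31.5 and 23.0 CPM). Between the MEF strains 0 of the 9 differed by 1 log2 unit, where 2.76% of all genes with a count did, too small a share to tell apart with 9 genes.

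Polycomb proteins keep Hox clusters silent and trithorax proteins keep them active. Of 20 Polycomb genes tested, 7 were lower and 4 higher in the ESC-labelled library, against 36.0% and 31.4% of all genes tested, so neither count stood above that of all genes. The largest falls were those of Phc3 (58.8, 61.1 and 10.8 CPM in OG2 MEFs, ICR MEFs and that library), Suz12 (54.8, 56.5 and 12.9 CPM), a core subunit of the complex that methylates histone H3, and Ring1 (14.9, 12.0 and 2.87 CPM). The higher ones were Pcgf2, Phc2, Cbx2 and Ezh2, the methyltransferase (36.2, 37.1 and 48.0 CPM), of which Ezh2, Cbx2 and Phc2 turned direction with TPM and Cbx2 and Phc2 also with the GC-content correction. Of 10 trithorax genes tested, 6 were higher, against 31.4% of all genes tested, led by Dpy30 (13.8, 12.96 and 122.6 CPM), Ash2l (60.2, 59.4 and 155.6 CPM) and Men1 (52.4, 51.9 and 123.3 CPM), and Kmt2a was lower (86.1, 89.4 and 53.8 CPM). With TPM, Kmt2b, Men1, Wdr5 and Kdm6b turned direction. For both lists 0 genes differed by 1 log2 unit between the MEF strains, where 2.76% of all genes with a count did. Lists of this size cannot be told from that share.

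Retinoic acid and Cdx factors open Hox clusters in the embryo. Of 11 genes listed for this, Cdx1, Cdx2 and Cdx4 were at 0 in all libraries and 8 were tested, with 5 lower and 1 higher in the ESC-labelled library, against 36.0% and 31.4% of all genes tested. Large falls were those of Rarg (119, 116 and 26.5 CPM), a retinoic acid receptor, and of Aldh1a2 (7.45, 7.74 and 0 CPM), the enzyme that makes retinoic acid. The higher gene was Rara (30.5, 39.5 and 76.0 CPM), another receptor, which turned direction with TPM. Rarb, a receptor gene that retinoic acid itself induces, was the only one of the 11 at least 1 log2 unit apart between the strains. Of all genes with a count, 2.76% were that far apart. Rarb had 30 counts in OG2 and 11 in ICR MEFs, a ratio of 2.50 (1.22 to 5.53). Its log2(CPM + 1) difference of 1.02 lay just past the threshold of 1 and rested on few counts.

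The clusters also hold non-coding genes, several of them antisense to Hox genes. Of 15 listed, 9 were in the tables and 5 were tested, of which 4 were higher and 0 lower in the ESC-labelled library with edgeR, against 31.4% and 36.0% of all genes tested. Hoxaas3, antisense to several Hoxa genes, had 9.41 and 9.48 CPM in OG2 and ICR MEFs, against 40.2 CPM in that library. Hotairm1 had 1.60, 0.774 and 13.6 CPM, and Hoxaas2 had 2.84, 1.74 and 12.9 CPM. Hoxa11os had 5.33, 7.35 and 13.6 CPM and turned direction with TPM. Hoxa3 and Hoxa11, which lie across from Hoxaas3 and Hoxa11os, were among the genes with lower CPM. Without strand the reads of each pair could not be told apart. The 6 microRNA genes were not analysed here.

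Among the Hox genes and the non-coding genes of the clusters, the largest log2(CPM + 1) difference between the strains was that of a non-coding gene. Hoxb3os, on the strand opposite to Hoxb2 and Hoxb3, had 36.8 expected counts in OG2 and 3.83 in ICR MEFs, an 8.49-fold higher CPM in OG2 MEFs (3.05 to 32.8 by counting error). Hoxb2 (51.4 and 32.2 counts, ratio 1.46, 0.922 to 2.35) and Hoxb3 (67.85 and 60 counts, ratio 1.04, 0.724 to 1.497) did not show a difference of that size. Of the homeobox genes beside or related to the clusters, Evx2, next to Hoxd13, had 2 counts in OG2 and 5 in ICR MEFs, and Evx1, Gsx1, Gsx2, Pdx1 and Mnx1 were at 0 in all 3 libraries.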

How the data were processed

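RNA-seq of 2 MEF libraries and 1 library labelled ESC was analysed. The authors made the libraries from Trizol RNA with a TruSeq kit and aligned reads with Bowtie (bowtie2 in the paper's methods) and RSEM, with mm10 named in the submitters' processing notes and Ensembl v67 in the paper, so the annotation release is unsure. The deposited tables hold an expected count per gene, TPM (scaled by transcript length to a fixed sum by the authors' RSEM run) and the deposited FPKM, which was not used. The paper also names a normalization for GC content, which the deposited expected counts were assumed not to carry.

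Symbols and positions came from GENCODE M21 (GRCm38), joined by identifier, and all 86 Hox transcripts listed matched it. Expected counts were rounded. The edgeR 4.0.16 test (R 4.3.3, TMM, its filter on low counts, group as the only term) ran on all genes, with the spread from the MEF pair. It was tested on simulated counts. OG2 and ICR MEFs were compared with exact Clopper-Pearson 95% intervals and a threshold of 1 log2 unit. The text gives values for members with at least 10 counts in a MEF library and, from the gene lists, for partners and up to 3 of the largest rises and falls past the test. Others that it names (those turned by TPM, strain differences, markers and Evx2) were picked after their values were seen. Members and lists were chosen with earlier results of these data known. Alternatives were median-of-ratios factors, other pseudocounts (0.1 or 5 in place of 1), TPM, GC-content correction over 20 bins, no filter, DESeq2 1.42.0, other ranges (1 to 3 anterior) and each MEF library left out. Alternatives for sums by range and cluster were added after the data had been seen. Depth is given in the report and intervals cover counting error only. The values of some genes are not reported here.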

Additional observations from a re-analysis of the deposited data

How the results depend on the processing

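DESeq2 gave 6 Hox genes lower and 1 higher in the ESC-labelled library, against 13 and 4 with edgeR, and the cause was not tested. Median-of-ratios factors gave 10 and 4, and no filter on low counts 13 and 4. Leaving out 1 MEF library allows no test, and by a difference of 1 log2 unit from the other one 18 or 19 genes were lower and 3 or 4 higher. Without the genes that overlap another Hox gene, 9 Hox genes were lower and 3 higher with edgeR. Shares of all genes called are given for the main edgeR run only, so these counts show only how the Hox calls moved. The log2 difference of Hoxd8 turned to -0.758 with TPM. Of the other differences of single genes between that library and MEFs over 7 alternatives, 100 moved by more than the spread of the MEF pair and 172 did not, with no other called gene turning direction. Between OG2 and ICR MEFs the count of genes 1 log2 unit apart was 0 in each alternative run.

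Without the genes that overlap another Hox gene, which leaves fewer genes, the shares of MEF Hox TPM were Hoxa 36.9%, Hoxb 42.6%, Hoxc 4.49%, Hoxd 16.0%, anterior 15.7%, central 35.2% and posterior 49.2%. From CPM the shares were 28.4% for Hoxa, 16.1% for the anterior, 42.2% for the central and 41.8% for the posterior genes. With ranges split at 3, the anterior share was 8.30% and the central share 54.6%. Summed Hox CPM without scaling factors was 422 in OG2 and 409 in ICR MEFs, and it was 258 in the ESC-labelled library, and 343 in ICR MEFs with median-of-ratios factors. The ratio of OG2 over ICR was 0.799 for posterior genes without Hoxb9. For Hoxc it was 1.13 with median-of-ratios factors, whose interval left out 1, and 0.985 with TPM. No paired analysis was possible because each strain had 1 library. The shallow ESC-labelled library limits genes under 2.15 scaled CPM.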
